A study of Mus musculus with 7 samples.

Results

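Laminins are the trimers of the basement membrane, each built from an α, a β and a γ chain, and in muscle they link the sheet around each fiber to dystroglycan and integrins at the fiber surface. The *Lama2* gene encodes the α2 chain, the main α chain of mature muscle fibers, and its loss causes the congenital muscular dystrophy LAMA2-CMD. The chains described here are the 9 genes *Lama1* to *Lama5*, *Lamb1* to *Lamb3* and *Lamc1*, chosen by gene symbol, and all 9 are among the 31531 genes of the deposited table. They were compared between muscle fibers of 4 WT and 3 dyW fetuses, with 1 library per fetus.

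The fetuses were at E17.5 and came from crosses of heterozygous dyW mice on a C57BL/6 background. The dyW fetuses are labelled dyW/dyW, homozygous for a disrupted *Lama2* allele that is present in every cell, and the WT fetuses are labelled wt. Neither group was treated. Fibers were freed from the epaxial muscles of the back with dispase and collagenase and caught on a strainer, so cells and matrix that stay attached to fibers can be part of a library. The libraries were made by SMART-seq2, which amplifies full-length cDNA from polyadenylated RNA by PCR without molecular identifiers. Reads of a gene are therefore not independent molecules, and any limit on a count covers counting error only.

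The libraries differ in ways that bear on every value below. Between 470804 and 2220813 reads fell on genes in the WT libraries, and from 3663905 to 18297106 in the dyW libraries. A normalized count is a number of reads divided by 1 size factor per library, and 1 read was worth 2.05 to 5.33 normalized counts in WT but 0.0974 to 0.488 in dyW. Every WT library had fewer reads than every dyW library, so depth and genotype cannot be told apart. The labelled cell type was checked against 12 myofiber genes, including actin, myosin, troponin and creatine kinase. Their summed normalized count was between 2650 and 70177 in WT, 8271 in dyW2 and 4853 in the third dyW library, but 65.8 in dyW1, where *Ckm*, *Myh3*, *Myh8* and *Des* had no read. The skeletal actin *Acta1* stood at 4.09 normalized counts in dyW1, against 1973 or more in each WT library.

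*Lama2* itself was uneven among the libraries labelled dyW. Counts over the whole gene cannot show whether its transcript is intact, so the genotype labels were not tested. From WT1 to WT4, its normalized counts were 90.6, 111, 105 and 107. It was 4.29 in dyW1, 6.07 in dyW2 and 139.7 in the third library, which is above all WT libraries and is named the library labelled dyW3 from here on. The reads behind these values were few in WT, with 17, 41, 51 and 34, against 44, 48 and 286 in the libraries labelled dyW. The WT mean was 103 ± 8.73 normalized counts (SD, n = 4) and that of the libraries labelled dyW 50.01 ± 77.7 (SD, n = 3). By an exact two-sided permutation test the difference had a *P* of 0.286, and the groups overlapped. Without the library labelled dyW3, the mean of the remaining dyW libraries was 5.18, which is 19.9-fold under WT with the deposited size factors and 9.33-fold with reads scaled to the total of each library. The exact permutation test then has 15 splits and cannot go below the *P* = 0.133 it gave. As that library was set apart by its *Lama2* value, these folds describe the remaining libraries and are no test of *Lama2*.

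The genes of the 9 chains are spread over the genome, and only *Lama2* is the target of the allele. On GRCm39, *Lama2* (ENSMUSG00000019899) occupies chr10:26856032-27495754 of the minus strand. *Lama4* (ENSMUSG00000019846), whose α4 chain is found in vessel walls, nerve and developing muscle, occupies chr10:38841141-38998403 of the plus strand. *Lamb1* (ENSMUSG00000002900) is at chr12:31315030-31379658 (plus) and *Lamc1* (ENSMUSG00000026478), the γ chain of most laminins, at chr1:153094597-153208774 (minus). Counting used whole genes, and no source states a strand setting, so reads in exons shared with a gene on the other strand cannot be told apart. The shared part was 7.19% of the exon bases of *Lama2* (with *Gm48084*), 12.9% of *Lama4* (with *Fam229b* and 2 predicted genes) and 7.62% of *Lamb1* (with *Dld* and a predicted gene). It was 0 for *Lama1*, *Lamb2* and *Lamc1*.

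Upstream sequence is shown for the targeted chain and for *Lamb1*, the chain with the highest mean level per kb of exon in both groups, although not in each library. These are the 250 bases before the transcript start as RefSeq gives it on GRCm38.p6, 5′ to 3′ on the strand of the gene. Capitals mark the GC box GGGCGG, searched on both strands.
*Lama2*, chr10:27616943-27617192, minus strand: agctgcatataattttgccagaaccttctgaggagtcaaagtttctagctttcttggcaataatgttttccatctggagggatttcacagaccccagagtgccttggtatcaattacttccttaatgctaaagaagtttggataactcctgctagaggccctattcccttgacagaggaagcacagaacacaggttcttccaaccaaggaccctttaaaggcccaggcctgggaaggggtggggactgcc
*Lamb1*, chr12:31265043-31265292, plus strand: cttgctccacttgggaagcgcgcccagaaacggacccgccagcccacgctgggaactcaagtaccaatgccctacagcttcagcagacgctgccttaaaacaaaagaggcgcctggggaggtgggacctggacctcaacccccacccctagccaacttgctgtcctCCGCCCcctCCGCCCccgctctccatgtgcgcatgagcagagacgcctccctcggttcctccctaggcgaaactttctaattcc
The *Lamb1* sequence held 2 GC boxes and 14 CpG dinucleotides, with 62.0% G and C. The *Lama2* sequence held no GC box and no CpG, with 47.2% G and C. Over all 32851 listed promoters, 32.7% held a GC box in the same 250 bases, the median number of CpG was 6 and the median G and C content 52.4%. A match describes the letters of this window only. RefSeq sequences were found for 5 of the 9 chains, and *Lama5* held 4 GC boxes, whereas *Lamb2* and *Lamb3* held none.

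In WT, reads on the laminin chains were few and close to a level seen on genes that muscle is not known to use. That level was taken from 1269 odorant and vomeronasal receptor genes, whose median was 0.641, 2.49, 1.76 and 1.86 reads per kb of exon in WT1 to WT4. In dyW1 and dyW2 their median was 0, and it was 1.09 in the library labelled dyW3. For *Lama2*, the ratio of its reads to those this level gives for its exon length lay between 0.925 and 1.62 in the WT libraries. The values were 0.161 to 1.22 for *Lama1*, 0.968 to 1.45 for *Lama3* and 1.11 to 1.96 for *Lamb3*. Higher ratios were found for *Lamb1*, from 2.04 to 6.76, *Lamb2*, from 1.72 to 5.63, and *Lamc1*, from 1.07 to 3.18. Those of *Lama4* and *Lama5* were 1.18 to 2.99 and 1.19 to 2.91. In the library labelled dyW3, where the receptor median is not 0, the ratios were 14.7 for *Lama2*, 52.0 for *Lama4*, 59.5 for *Lamb1* and 68.7 for *Lamc1*, but 1.04 for *Lama1*, 0.284 for *Lama3* and 0 for *Lamb3*. These ratios rest on the median. The mean level of the same receptor genes, all their reads over all their exon bases, was 14.5 reads per kb in the library labelled dyW3 and 1.36 to 2.78 in WT. Against that mean, the ratios in the library labelled dyW3 were 1.11 for *Lama2*, 3.92 for *Lama4*, 4.49 for *Lamb1* and 5.18 for *Lamc1*. In WT they were 0.699 to 1.47, 1.05 to 2.71, 0.957 to 6.11 and 0.954 to 2.77 in the same order, so that for *Lama2* and *Lamb1* the library labelled dyW3 lay within the WT range. *Lamb2* had 1.54 to 3.08 in WT and 0.783 in the library labelled dyW3. *Lama3* had 0.455 to 1.31 in WT, with 1.81 in dyW1, 0 in dyW2 and 0.0215 in the library labelled dyW3. *Lamb3* had 0.535 to 1.75 in WT and 0 in each library labelled dyW. The mean receptor level was 2.01 reads per kb in dyW1 and 0.192 in dyW2. Against it, the ratios in dyW1 and dyW2 were 1.23 and 14.03 for *Lama2*, 73.1 and 807 for *Lama4*, 53.6 and 4228 for *Lamb1* and 52.7 and 1239 for *Lamc1*. What share of the WT reads comes from transcripts of these genes was not tested.

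**Figure D1:**
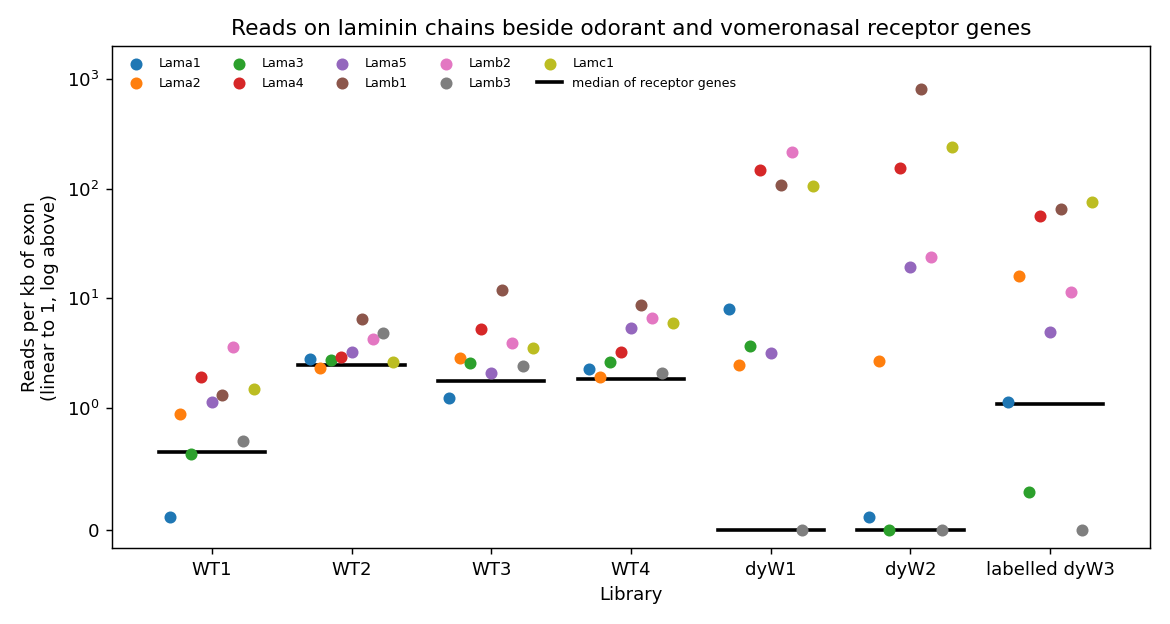
Reads per kb of exon (linear up to 1, logarithmic above) for each of the 9 laminin chains in each of the 7 libraries, with a black line at the median of the 1269 receptor genes. In WT the chains lie at 0.161 to 6.76 times the line. In the library labelled dyW3, *Lama4*, *Lamb1* and *Lamc1* lie at 52.0 to 68.7 times the line, but at 3.92 to 5.18 times the mean receptor level. In dyW1 and dyW2 the line is at 0. Reads per kb rise with the depth of a library.

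Groups were compared with limma on log2(normalized count + 1) over the 25791 genes whose mean normalized count reached 5, which all 9 chains passed. The added 1 makes such a fold change too small for genes with few counts. A gene is termed called where its absolute log2 fold change exceeds 1.5 and its adjusted *P*-value is under 0.01. Of the 9 chains, 2 were called lower in the libraries labelled dyW, *Lama3* and *Lamb3*, where 18.7% of all tested genes were called lower. No chain was called higher, where 0.0659% of all tested genes were, and 0 chains passed an unadjusted *P*-value under 0.05 in that direction. At an adjusted *P*-value under 0.05 with the same fold change, the same 2 chains were lower and 0 higher, against 29.6% of all tested genes lower and 259 genes higher. The share of chains called lower is thus close to that of all genes. The median log2 fold change was −2.56 over the 9 chains and −1.99 over all tested genes. The median of all genes moved to −0.98 with every library scaled to the same total and to 0.06 after quantile normalization, so changes are also given relative to it. With the same total, 4473 genes were lower and 1140 higher at an adjusted *P*-value under 0.05, against 7625 and 259 as deposited.

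The chains called lower, *Lama3* and *Lamb3*, encode the α3 and β3 chains found in the laminin of epithelia such as epidermis. *Lamb3* (ENSMUSG00000026639, chr1:192890007-193027705, plus strand) had 31.99, 108, 41.0 and 53.5 normalized counts in WT1 to WT4 and no read in any library labelled dyW. These WT values rest on 6, 40, 20 and 17 reads and lie at 0.535 to 1.75 times the mean receptor level. Since a count of 0 allows up to 3 reads in each library, the group mean has a limit of 0.712 normalized counts. Taken as it stands, the WT mean of 58.6 was at least 82.3-fold above this limit, with the spread within WT left out. Without the library labelled dyW3 this limit is 0.336 and the difference at least 174-fold. These bounds hold for the deposited size factors, and with reads scaled to the total of each library they are 36.8-fold and 78.4-fold. In limma this was a log2 fold change of −5.74 (SE 0.714), with an adjusted *P*-value of 0.00372.

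*Lama3* had 42.6, 94.4, 67.7 and 107 normalized counts in WT1 to WT4. It had 4.58 in dyW1, none in dyW2 and 1.95 in the library labelled dyW3, from 47, 0 and 4 reads, so the groups did not overlap. The log2 fold change was −4.87 (SE 0.803, adjusted *P*-value of 0.00374 in limma). Relative to the median of all genes, the change was −2.88 for *Lama3* and −3.75 for *Lamb3*, and after quantile normalization −3.67 and −3.84. Neither chain was called without WT2, WT4 or dyW2, with adjusted *P*-values from 0.0121 to 0.0145, in fits in which no gene at all was called. Neither was called with every library scaled to the same total, where the adjusted *P*-values were 0.0223 for *Lama3* and 0.0193 for *Lamb3*, or after quantile normalization, with 0.0776 and 0.0873.

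Some epidermal genes were lower in the same libraries. The table holds 7 of the 10 epidermis markers, and 3 of them were called lower, against 18.7% of all tested genes, *Krt1*, the p63 gene *Trp63* and the desmosome gene *Dsp*. *Krt10* and *Epcam* overlapped between the groups, and their highest values were in libraries labelled dyW, 57.8 normalized counts of *Krt10* in dyW2 and 28.1 of *Epcam* in dyW1. The summed normalized count of the 7 markers was 113 to 217 in WT and 40.1 to 57.8 in the libraries labelled dyW, and *Krt1* had no read in the latter. In dyW2 the whole sum was *Krt10*. The part of epidermal RNA in the WT values was not tested. In bulk samples, fewer cells of a type and less RNA per cell cannot be told apart.

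**Figure D2:**
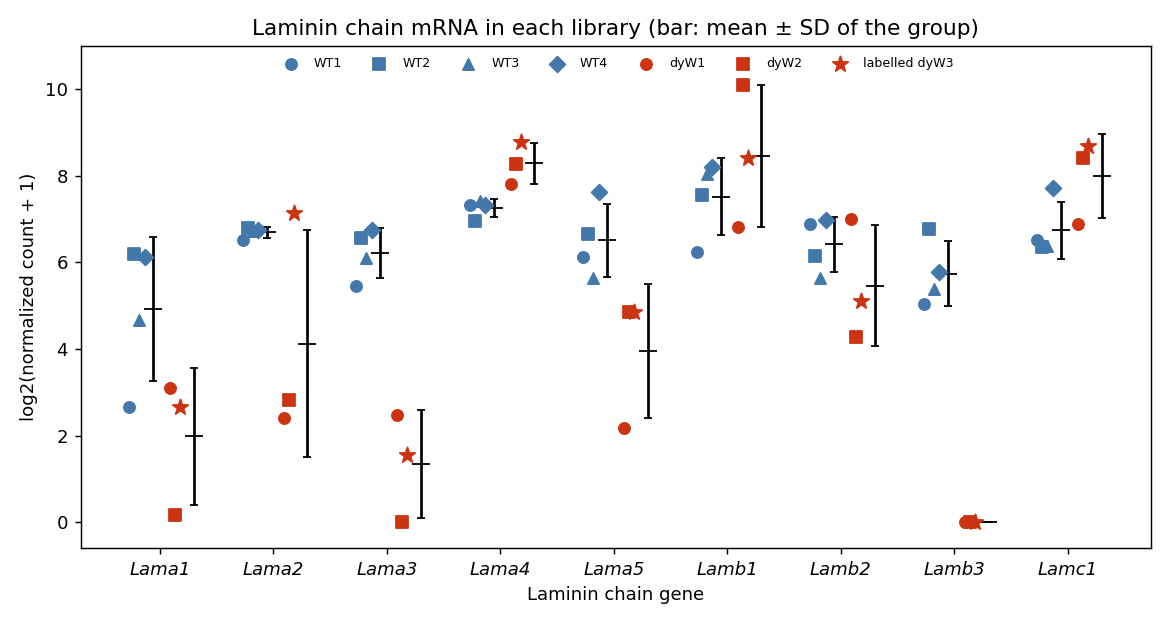
Level of each laminin chain as log2(normalized count + 1) in each library, with WT in blue, the libraries labelled dyW in red and black bars for the mean ± SD of each group. *Lama3*, *Lama5* and *Lamb3* are separated with WT above, *Lama4* with WT below, and *Lama2* falls apart within the libraries labelled dyW.

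The remaining α chains show no common pattern. *Lama4* had 159.9, 124, 170.3 and 160.5 normalized counts in WT1 to WT4, against 225 in dyW1, 308 in dyW2 and 436 in the library labelled dyW3. It was the only chain for which every library labelled dyW lay above every WT library, which held for 3.28% of all tested genes. The means of 154 ± 20.3 (SD, n = 4) for WT and 323 ± 106 (SD, n = 3) differ 2.10-fold, with an exact two-sided permutation *P* of 0.0571, the smallest that 35 splits of 7 libraries allow (0.129 adjusted over the 9 chains). The log2 fold change of 1.02 (SE 0.488) had a 95% interval from −0.08 to 2.13 and a limma adjusted *P*-value of 0.140, so *Lama4* was not called. Relative to the median of all genes it was 3.01 as deposited and 3.15 with every library scaled to the same total, where its own log2 fold change was 2.17 (limma adjusted *P*-value of 0.0272). After quantile normalization the relative value was 0.13, with an adjusted *P*-value of 0.932.

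*Lama5* (ENSMUSG00000015647, chr2:179818166-179867712, minus strand), whose α5 chain is widespread in epithelia, vessels and developing muscle, had 69.3, 99.8, 49.2 and 195 normalized counts in WT1 to WT4. It had 3.51 in dyW1, 27.82 in dyW2 and 27.84 in the library labelled dyW3. All WT libraries lay above all the others, as they did for *Lama3* and *Lamb3* and for 31.5% of all tested genes. The log2 fold change was −2.56 (SE 0.872, adjusted *P*-value of 0.0544 in limma), or −0.57 relative to the median of all genes. Without dyW1 it was −1.66 (limma adjusted *P*-value of 0.125). It was −3.00 without dyW2 and without the library labelled dyW3 (limma adjusted *P*-values of 0.0482 and 0.0283). Quantile normalization put the relative value at −2.38, and equal totals put it at −0.50.

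*Lama1* (ENSMUSG00000032796, chr17:68004223-68129642, plus strand), which encodes the α1 chain of early embryonic basement membranes, ranged from 5.33 to 72.8 normalized counts in WT, with 1 read in WT1. It was at 7.60 in dyW1, 0.126 in dyW2 and 5.37 in the library labelled dyW3, so that the groups overlapped through WT1. Its log2 fold change was −2.94 (SE 1.13, adjusted *P*-value of 0.0758 in limma). It was −3.69 without WT1 and −2.03 without dyW2 (limma adjusted *P*-values of 0.0393 and 0.205). That of *Lama2* was −2.58 (SE 1.10, limma adjusted *P*-value of 0.103), and −0.59 relative to the median of all genes, against −0.52 with the same total and −2.09 after quantile normalization. Without the library labelled dyW3, *Lama2* was called lower, at −4.09 (SE 0.575, limma adjusted *P*-value of 0.00202). That library was set apart by its *Lama2* value, so this call is not an independent test. With any other library left out, *Lama2* was not called (limma adjusted *P*-values of 0.176 to 0.263). Without the library labelled dyW3, the genes called lower among all tested also rose from 4830 to 6698.

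The β1 and γ1 chains, which join *Lama2* or *Lama4* products in trimers, had their highest normalized counts in dyW2 and the library labelled dyW3. *Lamb1* had 74.6, 189, 263 and 293 normalized counts in WT1 to WT4, against 113 in dyW1, 1100 in dyW2 and 340 in the library labelled dyW3. The highest value by far is that of dyW2, and dyW1 lies inside the WT range. The log2 fold change was 0.94 (SE 0.839, adjusted *P*-value of 0.421 in limma) as deposited, 0.11 without dyW2 and 1.75 without dyW1. It was 2.08 with every library scaled to the same total (limma adjusted *P*-value of 0.0587) and 0.20 after quantile normalization, and *Lamb1* was not called in any of these fits.

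*Lamc1* had 90.6, 80.9, 82.1 and 211 normalized counts in WT1 to WT4, against 117 in dyW1, 340 in dyW2 and 415 in the library labelled dyW3. Only dyW1 lay within the WT range, below WT4. The means were 116 ± 63.3 (SD, n = 4) for WT and 291 ± 155 (SD, n = 3), with an exact two-sided permutation *P* of 0.114. The log2 fold change was 1.25 (SE 0.656, 95% interval from −0.23 to 2.74, limma adjusted *P*-value of 0.174). With every library scaled to the same total it was 2.40 (limma adjusted *P*-value of 0.0271), or 3.38 relative to the median of all genes, and after quantile normalization the relative value was 0.43.

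*Lamb2* (ENSMUSG00000052911, chr9:108356935-108367729, plus strand), the β2 chain of mature muscle and of the neuromuscular junction, split the libraries differently. It had 117, 70.1, 49.2 and 126 normalized counts in WT1 to WT4, 127 in dyW1, 18.5 in dyW2 and 33.7 in the library labelled dyW3. The highest and the lowest values are thus both from libraries labelled dyW. The log2 fold change was −0.95 (SE 0.781, adjusted *P*-value of 0.379 in limma) as deposited and 0.18 with every library scaled to the same total, so no direction is given for it.

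As a share of all reads counted on genes, 3 of the 9 chains, *Lama4*, *Lamb1* and *Lamc1*, lay higher in every library labelled dyW than in every WT library, as 9.08% of all tested genes did. *Lama4* took 28.9 to 63.7 RPM, reads scaled to the total on genes of each library, in WT and 161, 133 and 243 in dyW1, dyW2 and the library labelled dyW3. *Lamb1* took 29.7 to 57.6 in WT and 80.4, 475 and 190 in the same order. For *Lamc1* the values were 18.01 to 38.03 in WT and 83.5, 147 and 232. In the other direction, only *Lama3* and *Lamb3* of the 9 chains stayed apart on this scale, against 23.2% of all tested genes, and *Lama5* overlapped. The summed share of the 9 chains was 187 to 272 RPM in WT and 430 to 782 in the libraries labelled dyW.

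**Figure D3:**
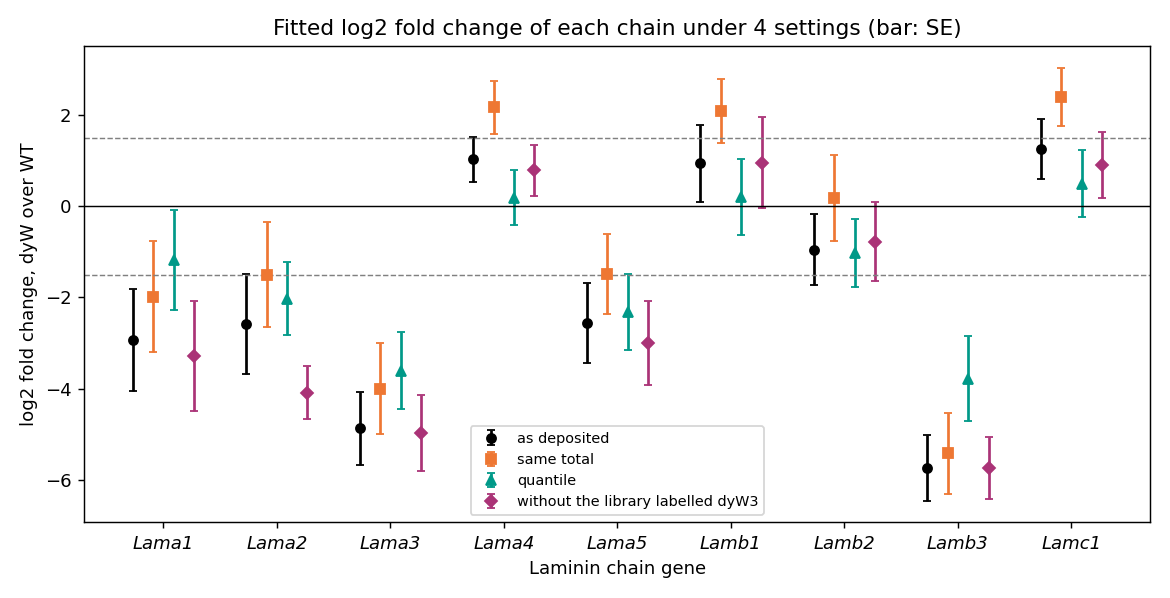
Fitted log2 fold change (dyW over WT) of each laminin chain with its SE, for the deposited scaling, every library scaled to the same total, quantile normalization and without the library labelled dyW3, with dashed lines at the threshold of 1.5 in both directions. *Lama2*, *Lama3* and *Lamb3* stay under −1.5 in all 4 settings (*Lama2* at −1.51 with the same total), and *Lamb2* changes sign with the same total.

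The sum of the fibroblast markers was higher in every library labelled dyW, although most single markers overlapped. Of 10 fibroblast markers, 0 were called at an adjusted *P*-value under 0.01 and 3, *Pdgfra*, *Col1a2* and *Tcf4*, were higher at an adjusted *P*-value under 0.05, as were 259 of the 25791 tested genes. Their summed normalized count was 4404 to 15159 in WT and 22707 to 34001 in the libraries labelled dyW, and none of the 10 was without a read in the latter group as a whole. In 3 of the 10 every library labelled dyW lay above every WT library, against 3.28% of all tested genes, and in 1, *Osr1*, every WT library lay above, against 31.5% (log2 fold change −2.56, limma adjusted *P*-value of 0.0912). The sum of dyW1 was mostly collagen I, with 8467 normalized counts of *Col1a1* and 12046 of *Col1a2*, whereas *Col3a1* was at 232, below WT, *Dcn* at 134, *Postn* at 108 and *Dpt* at 0. Endothelial markers, which mark cells rich in *Lama4* and *Lama5*, summed to 725 to 913 in WT and to 1607 in dyW1, 1010 in dyW2 and 892 in the library labelled dyW3. Markers of Schwann cells, which line nerve fibers with a basement membrane of their own, summed to 491 to 724 in WT and to 242, 1719 and 1181 in the same order. Smooth muscle and pericyte markers summed to 672 to 2476 in WT and to 352 to 1341 in the libraries labelled dyW, and myogenic progenitor markers to 160 to 566 and to 39.6 to 1146. None of these 4 lists held a called gene. The part of any of these cells in the levels of the chains was not tested.

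The makeup of the chains within a library does not depend on its size factor. Reads per kb of exon were therefore expressed as a share of all α or all β chains. In WT, the 5 α chains were mixed, with *Lama4* at 40.4%, 21.0%, 37.6% and 21.0% in WT1 to WT4 and *Lama2* at 20.2%, 16.5%, 20.4% and 12.3%. In the libraries labelled dyW, *Lama4* took 89.5% in dyW1, 87.5% in dyW2 and 71.6% in the library labelled dyW3. The mean share of *Lama4* was 30.0% ± 10.5 (SD, n = 4) for WT and 82.9% ± 9.78 (SD, n = 3), a difference of 52.9 percentage points that exceeds the spread within both groups before any receptor level is subtracted. The exact two-sided permutation *P* was 0.0571, the smallest the design allows, and 0.0952 after adjustment over the 10 measures of makeup.

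*Lama2* took 1.502% of the α chains in dyW1 and 1.523% in dyW2, but 20.2% in the library labelled dyW3, within its WT range (exact two-sided permutation *P* = 0.229). The share of *Lama5* was 14.9% to 35.005% in WT and 1.91% to 10.9% in the libraries labelled dyW, and that of *Lama3* 13.1% to 19.5% and 0 to 2.22%, both without overlap before the receptor level was subtracted. On the log2 scale, *Lama4* exceeded *Lama2* by 0.348 to 1.002 in WT, by 5.90 in dyW1, 5.85 in dyW2 and 1.82 in the library labelled dyW3, also before the subtraction. *Lamc1* stood at −2.40 to −1.39 against the sum of the α chains in WT and at −0.63, 0.43 and −0.08 in the same order, without overlap before that subtraction (exact two-sided permutation *P* = 0.0571).

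After subtraction of the median receptor level from every chain, the share of *Lama4* in WT spread from 22.4% to 61.3%, and it was 74.7% to 89.5% in the libraries labelled dyW. *Lama2* then had nothing left in WT2 and 0.769% of the α chains in WT4, against 15.05% in WT1 and 19.1% in WT3. With the canonical transcript as the length, *Lama4* took 36.6% to 57.6% in WT and 80.4% to 95.1% in the libraries labelled dyW, so the groups did not overlap in the share of *Lama4* under either choice. They did overlap when the mean receptor level was subtracted in place of the median, which left 100%, 24.6%, 66.7% and 22.1% in WT1 to WT4 and 94.0%, 87.8% and 96.4% in the libraries labelled dyW (exact two-sided permutation *P* = 0.229). *Lama4* was then the only α chain above 0 in WT1. After subtraction of the median, the groups overlapped in the share of *Lama3*, with 0 in WT1 and 2.22% in dyW1, and in that of *Lama5*, with 5.78% in WT3 and 10.9% in dyW2 (exact two-sided permutation *P* = 0.229 and 0.114). They also overlapped in the log2 ratio of *Lamc1* to the α chains, with −0.61 in WT4 and −0.63 in dyW1 (exact two-sided permutation *P* = 0.114). The log2 ratio of *Lama4* to *Lama2* was then 2.02 in WT1, 1.68 in WT3 and 4.87 in WT4, with no value in WT2, and the 1.90 of the library labelled dyW3 lay among them.

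**Figure D4:**
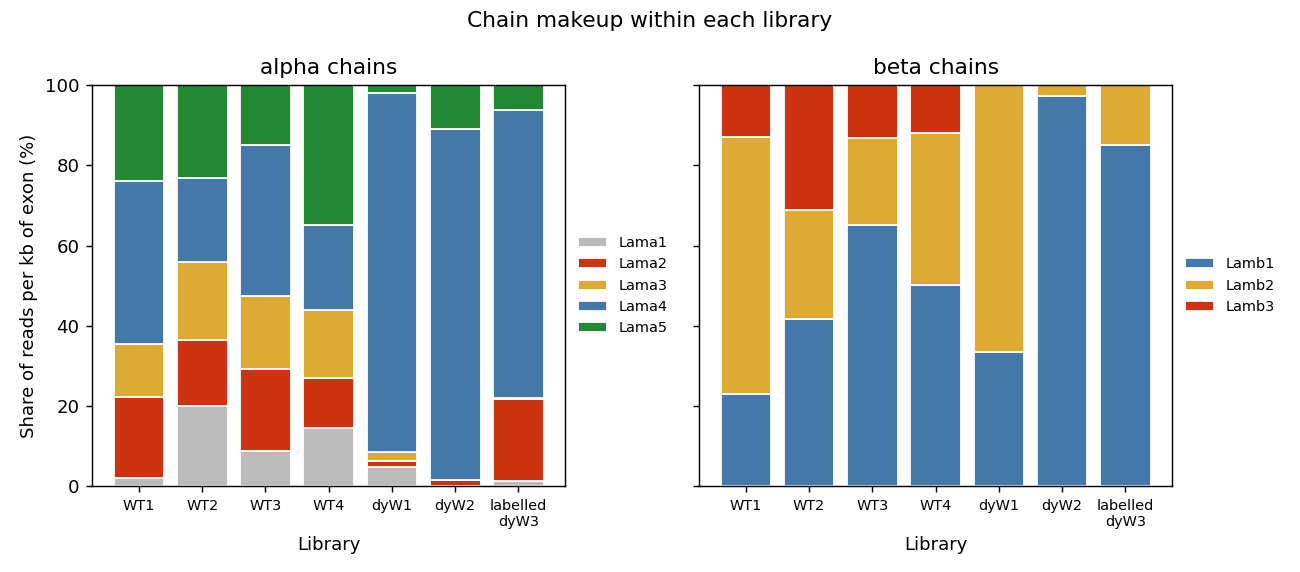
Share of each chain (%) in the reads per kb of exon of the 5 α chains (left) and the 3 β chains (right), with 1 stacked bar per library that sums to 100%. *Lama4* takes 71.6% or more of the α chains in the libraries labelled dyW, and dyW1 differs from the others of its group by *Lamb2*, at 66.5% of the β chains.

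Between *Lamb1* and *Lamb2*, the shares of the β chains overlapped between the groups. *Lamb1* took 23.1%, 41.7%, 65.2% and 50.1% of the β chains in WT1 to WT4, and 33.5% in dyW1, 97.1% in dyW2 and 85.2% in the library labelled dyW3 (exact two-sided permutation *P* = 0.229). *Lamb2* took the rest in all libraries labelled dyW, since *Lamb3* had no read there. With the mean receptor level subtracted, the share of *Lamb3* was 0 in WT1 and WT4 too (exact two-sided permutation *P* = 0.571). The library in which *Lamb2* exceeded *Lamb1*, dyW1, is also the library with myofiber markers at 65.8 normalized counts. In WT1, the WT library with the lowest myofiber sum of 2650, *Lamb2* likewise exceeded *Lamb1*, with 64.0% of the β chains. The part of the fiber content in this split was not tested.

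In the order of levels per kb of exon, *Lamb1* had the highest mean in both groups, at 19.1 ± 9.05 normalized counts per kb (SD, n = 4) for WT and 48.3 ± 48.2 (SD, n = 3) for those labelled dyW. In WT it was followed by *Lamb2* (14.9), *Lamc1* (10.3), *Lama4* (9.78), *Lama5* (9.03), *Lamb3* (7.12), *Lama3* (6.05), *Lama2* (5.79) and *Lama1* (4.43). The ranges of all neighbours in this order overlapped, although *Lamb2* was above *Lamc1* within each of the 4 libraries. In the libraries labelled dyW the order was *Lamb1*, *Lamc1* (25.7), *Lama4* (20.54), *Lamb2* (9.81), *Lama2* (2.80), *Lama5* (1.72), *Lama1* (0.450), *Lama3* (0.169) and *Lamb3* (0), and again the ranges of all neighbours overlapped. Within each of these 3 libraries, *Lama1* was above *Lama3*. The first place of *Lamb1* rests on dyW2, since it was at 10.5 in dyW1, under *Lamb2* at 20.9 and *Lama4* at 14.3, and at 31.7 in the library labelled dyW3, under *Lamc1* at 36.6. Without dyW2 the mean was 21.1 for *Lamb1* and 23.5 for *Lamc1*. Among the α chains, *Lama2* in WT had the narrowest spread, 0.490 normalized counts per kb (SD, n = 4).

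Genes with the most similar course over the 7 libraries were named by the smallest root mean square distance between log2 profiles centred on their means, among 6105 genes whose mean normalized count reached 50. For *Lama2* these were *Ntrk3* (0.45), *Dnah7b* (0.45) and *Amn1* (0.46), which share its low values in dyW1 and dyW2 and were within or above the WT range in the library labelled dyW3. *Ntrk3* had 134 to 239 normalized counts in WT, 5.75 in dyW1, 17.8 in dyW2 and 142 in the library labelled dyW3. For *Lama4* they were *Vps4b* (0.17), *Araf* (0.18) and *Supt16* (0.19), and for *Lamb1* *Pex7*, *Cep112* and *Timm8b* (0.32 to 0.33). For *Lamc1* they were *Adamts2* (0.26), a procollagen-processing enzyme, *Btbd10* (0.32) and *Col4a1* (0.33), a chain of basement membrane collagen. These distances describe the same 7 libraries and carry no test.

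The proteins that bind laminins include integrins, dystroglycan and the red cell antigen encoded by *Bcam*. Of the 7 receptor genes examined, 2 were called lower, *Itgb4* and *Itga3*, which encode the β4 and α3 integrin subunits of epithelia, and 0 higher, against 18.7% and 0.0659% of all tested genes. Neither was called with every library scaled to the same total, after quantile normalization or with a pseudocount of 10. The same held with the replicate block and without WT2, WT4 or dyW2. *Itgb4* had 16.4 to 128 normalized counts in WT, 2.14 in dyW1, 0.126 in dyW2 and none in the library labelled dyW3 (log2 fold change −5.29, limma adjusted *P*-value of 0.00398). *Itga3* had 12.3 to 59.3 in WT, none in dyW1 and dyW2 and 4.395 in the library labelled dyW3 (−4.20, limma adjusted *P*-value of 0.0083). The receptors with the highest level per kb were not called. *Itgb1*, the β1 subunit shared by most laminin-binding integrins, averaged 287 ± 148 normalized counts (SD, n = 4) for WT and 811 ± 315 (SD, n = 3), with a log2 fold change of 1.54 (limma adjusted *P*-value of 0.0676). *Dag1*, which encodes dystroglycan, had 168 ± 30.8 (SD, n = 4) and 205 ± 120 (SD, n = 3), with 0.15 (0.856, limma). *Itga6* had 73.4 ± 31.4 (SD, n = 4) and 195 ± 132 (SD, n = 3), with 1.27 (0.206, limma).

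Of the 13 other basement membrane genes examined, 1 was called lower, *Col4a3*, and 0 higher, against the same 18.7% and 0.0659% of all tested genes. It was not called with every library scaled to the same total, after quantile normalization or with a pseudocount of 10. The same held with the replicate block and without WT2, WT4 or dyW2. *Col4a3* encodes a type IV collagen chain of kidney and lung and had 15.99 to 62.0 normalized counts in WT against 0, 0 and 0.488 in dyW1, dyW2 and the library labelled dyW3 (log2 fold change −4.90, limma adjusted *P*-value of 0.00372). The most abundant per kb, *Sparc*, ranged from 3069 to 47815 in WT and from 2166 to 3447 in the libraries labelled dyW (−1.65, limma adjusted *P*-value of 0.183). *Col4a1* averaged 325 ± 157 normalized counts (SD, n = 4) for WT and 697 ± 442 (SD, n = 3). *Nid1*, which bridges laminin and type IV collagen through the γ1 chain, had 156 ± 64.9 (SD, n = 4) and 625 ± 463 (SD, n = 3), with log2 fold changes of 0.90 and 1.60 for the 2 genes (limma adjusted *P*-values of 0.335 and 0.161). *Nid1* was at 114 in dyW1, inside its WT range, and at 744 and 1016 in dyW2 and the library labelled dyW3, and *Lamb1* and *Lamc1* were likewise lower in dyW1 than in those libraries. *Lamc3*, which encodes the γ3 chain, ranged from 16.4 to 112 normalized counts in WT, with 10.2 in dyW1 and no read in dyW2 or the library labelled dyW3 (−4.57, limma adjusted *P*-value of 0.0122).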

How the data were processed

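RNA of muscle fibers from 4 WT and 3 dyW fetuses was sequenced. After trimming with Cutadapt, the authors mapped reads to GRCm39 (RNA STAR), counted unique alignments per gene (FeatureCounts) and deposited normalized counts, reads divided by 1 size factor per library. Versions, annotation release and strand setting are not given in the sources used here. A second deposited table of the authors' fold changes and P-values from DESeq2 was not used. Within each library, 100% of the values up to 1000 reads were whole multiples of 1 step within 0.1 of a step, and dividing by it gave the reads.

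Genes were fitted with limma 3.58.1 under R 4.3.3 (lmFit and a trended eBayes, genotype only) on log2(normalized count + 1), with Benjamini-Hochberg adjustment over 25791 genes. For single values, an exact two-sided permutation test over the samples was used, with 35 arrangements. Exon lengths came from GENCODE mouse release M39 (GRCm39), in which 99.2% of the gene identifiers were found. Other steps ran in Python 3.11.15 with scipy 1.17.1, pandas 2.3.3, matplotlib 3.10.9 and numpy 2.4.6, and the fit was tested on simulated data. Nothing in the labels says that the fetuses came from separate litters, so *P*-values measure the spread between these fetuses only.

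The chains, gene lists and rules were chosen with earlier results of these data known. Named genes are the 9 chains, *Lamc3*, the 3 highest per kb and any called gene of the receptor and basement membrane lists, and the 3 nearest profiles of 4 chains. The rule also covers 1 further gene that is not reported here. Markers and other ranges were named after their values were seen. As alternatives, the pseudocount was set to 0.1 or 10, the filter was dropped or raised to a mean of 50, and the fit was repeated with quantile normalization, the same total, a replicate block, each library left out, an adjusted *P*-value under 0.05, and other lengths or a subtracted receptor level for the shares. Voom on the recovered reads, the canonical transcript length, the RPM values and the mean receptor level were chosen after seeing the data.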

Additional observations from a re-analysis of the deposited data

Results flagged for a closer look

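The normalized count of *Lamc1* was 211 in WT4 and 80.9 to 90.6 in the other WT libraries, and this gap takes 0.925 of the WT range. The share of *Lamb3* in the β chains was 31.1% in WT2 and 11.9% to 13.3% in the other WT libraries, a gap of 0.930 of the range. Both gaps pass Dixon's 95% critical value for 4 libraries. Chance alone passes it in about 1 of 20 groups, and 19 groups of 4 WT values were examined.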

How the results depend on the processing

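Fold changes of the 9 chains kept their direction under all alternatives run except that of *Lamb2*, which was 0.18 when every library was scaled to the same total. *Lama3* and *Lamb3*, called in the reported fit, lost the call in the same-total scaling (−4.00 and −5.41), after quantile normalization (−3.61 and −3.78), with a pseudocount of 10 (−2.80 and −2.66) and with the replicate block (−4.69 and −5.73). *Lama3* also lost it with a pseudocount of 0.1 (−6.22) and under voom (−5.64). With each library left out in turn, *Lama3* stayed between −5.44 and −4.20, *Lamb3* between −5.98 and −5.40 and *Lama2* between −4.09 and −1.72. The number of chains called lower, 2 in the reported fit, was 1 with a pseudocount of 0.1 or voom and 0 with a pseudocount of 10, a mean of at least 50, quantile normalization, the same total or the replicate block, and 0 to 3 with a library left out. A mean of at least 50 removes *Lama1*, *Lama3* and *Lamb3* from the test. At an adjusted *P*-value under 0.05, the number of lower chains was 0 with a mean of at least 50, quantile normalization or the replicate block and 2 to 4 with a library left out, and the number of higher chains was 2 with the same total. Called receptors numbered 1 with a pseudocount of 0.1 or voom and 0 with a pseudocount of 10, a mean of at least 50, quantile normalization, the same total or the replicate block, and 0 to 2 with a library left out. Called basement membrane partners numbered 0 in those same 5 settings and 0 to 2 with a library left out. The difference of means of the normalized counts turned to 4.35 for *Lama2* and 46.4 for *Lamb2* with the same total, and the difference in the *Lamb2* share ranged from −28.8 to 3.00 percentage points with a library left out. The difference in the *Lama1* share turned to 0.595 percentage points with the mean receptor level subtracted. The cause of these changes was not tested.

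The labels give both groups the replicate numbers 1 to 3. Deviations from the group means of same-numbered libraries correlated at 0.38, 0.01 and −0.15 over 6111 genes. With so few libraries this does not settle whether the numbers pair them, and the reported fit did not use pairs. With the replicate block, 1 gene of all tested was called lower and 0 higher, against 4830 and 17 without it, at an unchanged direction for all 9 chains. Over all genes, 0 were called lower with a pseudocount of 10, a mean of at least 50 or the same total and without WT2, WT4 or dyW2, 2 after quantile normalization and 2090 without dyW1. The planned edgeR and DESeq2 fits on recovered reads were not run. The WT levels of *Lama1*, *Lama3*, *Lamb2* and *Lamb3* rest on at most 40 reads per library, which limits their precision.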
